A study of Mus musculus with 15 samples.

Results

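The members described here are the transcripts of 9 genes that encode RNA-binding regulators of AU-rich and stem-loop elements other than tristetraprolin (TTP): Elavl1, Hnrnpd, Khsrp, Tia1, Tial1, Celf1, Zc3h12a, Rc3h1 and Rc3h2. They were chosen by name, out of 21045 protein-coding genes with an annotated 3′UTR, and every crosslink site on the sense strand of these genes was taken from 6 site lists. The lists came from iCLIP, a method in which a protein is fixed to RNA by ultraviolet light and the crosslinked nucleotide is read from the end of the cDNA. The protein was a GFP fusion of mouse TTP or of TTP-AA, a mutant in which both serines phosphorylated by the kinase MK2 are alanine. GFP–TTP or GFP–TTP-AA was expressed in bone marrow-derived macrophages of C57BL/6 mice that lack TTP, immortalized with c-myc and Ras oncogenes, from a retroviral doxycycline-inducible vector, and GFP-positive cells were sorted. All cells received 1 µg/ml doxycycline for 6 h. With it they had no lipopolysaccharide (LPS, 0 h) or 1 µg/ml LPS for 1 h or 4 h, which gave 6 groups and 15 libraries. TTP in these cells was therefore exogenous, was driven by an inducible promoter in place of its own, and was the only TTP present.

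The authors added the libraries of a group together before they called sites. Each group is thus 1 list, and the comparisons between lists have no replicate check. The depth differed between lists. The TTP lists held 33587 unique cDNAs at 0 h (2 libraries), 99263 at 1 h (4 libraries) and 29060 at 4 h (2 libraries). The TTP-AA lists held 32617 cDNAs at 0 h (2 libraries), 174397 at 1 h (3 libraries) and 19167 at 4 h (2 libraries). The cDNAs in 3′UTRs ranged from 906 in the TTP list at 4 h to 93510 in the TTP-AA list at 1 h, and were 9558 in the TTP list at 1 h. The macrophage label was checked on 3′UTR sites. All 6 macrophage markers had a site in the TTP-AA list at 1 h, and Adgre1, Csf1r and Lyz2 in the TTP list at 1 h. At 0 h only Lyz2 had one, with TTP, and at 4 h none had one, so the check covers mainly the 1 h lists. None of the 13 markers of T cells, B cells, fibroblasts and epithelial cells had one in any list. Most genes have none, as 21.4% of all genes had a site in TTP-AA at 1 h.

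Proteins that bind AU-rich elements compete for or share short stretches of A and U in 3′UTRs, and decide whether the mRNA of a cytokine or an immediate early gene is degraded, stored or translated. HuR protects such mRNAs, AUF1 and KSRP mostly speed up their decay, TIA-1 and TIAR hold back their translation, and CUGBP1 acts on GU-rich elements. Regnase-1 and the Roquins recognise stem-loops instead and limit the mRNAs of inflammatory and immune genes in macrophages and lymphocytes. The sites below are contacts of TTP with the mRNAs that encode these regulators, and say nothing of where the regulators themselves bind.

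The sequences around the crosslink sites are shown first, because the sites of these genes fell into stretches with and without the pentamer AUUUA. Each line holds 29 nt of the transcript 5′ to 3′ with the crosslinked nucleotide at position 15, and capitals mark AUUUA. Sequences were read from GENCODE M21 transcripts, and coordinates are GRCm38 (mm10). The stretches of Tial1, Rc3h1 and Rc3h2 surround their strongest sites at 1 h in TTP-AA, with 3 cDNAs each, and all 3 stretches hold the pentamer (in Tial1 a site at nt 101 tied).
Tial1, nt 94 after the stop codon, chr7:128442425-128442453, minus strand: cggaaaaugaaaauAUUUAuuuuaaaaau
Rc3h1, nt 2258, chr1:160970041-160970069, plus strand: auacuuuacucauuAUUUAuugagaugag
Rc3h2, nt 2104, chr2:37373282-37373310, minus strand: acauuuuAUUUAuuuuacucuguaaccug
The strongest sites of Elavl1, Hnrnpd, Khsrp and Celf1 at 1 h in TTP-AA lay in stretches without it. In Elavl1, 6 sites tied at 2 cDNAs, of which the one nearest the stop codon is shown, and in Celf1 2 sites tied at 2 cDNAs, of which the U-rich one at nt 3390 is shown. The site of Hnrnpd had 2 cDNAs and that of Khsrp 3.
Elavl1, nt 237, chr8:4289349-4289377, minus strand: caaauguuagaccaauuuuaaguuucuua
Hnrnpd, nt 63, chr5:99961287-99961315, minus strand: ccaauuugaagauucauuugaagguggcu
Khsrp, nt 1192, chr17:57021487-57021515, minus strand: aauauauaaaucucuauuccccagccucc
Celf1, nt 3390, chr2:91016741-91016769, plus strand: uuuuucuuucuuuuuuuuuuuucccuuuu
Also shown is the densest AU-rich stretch of the Elavl1 3′UTR, around a site with 1 cDNA at 1 h in TTP-AA, because few crosslinks fell there. The stretch of Rc3h2 after it surrounds a site with 1 cDNA at 0 h in TTP-AA, in a place without sites at 1 h. Both were chosen after the values were seen, as was the stretch of Khsrp.
Elavl1, nt 3813, chr8:4285773-4285801, minus strand: uAUUUAUUUAUUUAuuuuuAUUUAuuugu
Rc3h2, nt 3098, chr2:37372288-37372316, minus strand: gaggaaaauaguacaaacagaccuagaau

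Most contacts with the 9 mRNAs were found with TTP-AA after 1 h of LPS, and in that list they were almost all in 3′UTRs. Over the 6 lists the 9 genes had 210 sites with 245 cDNAs, of which 218 (89.0%) were in 3′UTRs. That share rested on TTP-AA at 1 h, with 186 of 195 cDNAs in 3′UTRs (95.4%). It was 12 of 15 (80.0%) with TTP-AA at 0 h, 7 of 13 (53.8%) with TTP at 0 h and 13 of 18 (72.2%) with TTP at 1 h. The lists themselves differed in 3′UTR share. It was 53.6% with TTP-AA at 1 h, 18.4% with TTP-AA at 0 h, 13.0% with TTP at 0 h and 9.63% with TTP at 1 h. These list shares also count cDNAs outside genes, so their baseline differs from that of the members. Over the 6 lists, exons of transcripts not classed as protein-coding took 12 cDNAs of the 9 genes, introns 9, coding sequence 6 and 5′UTRs 0. No site lay on the antisense strand of any of the 9 genes. The 3′UTR cDNAs summed to 7 at 0 h, 13 at 1 h and 0 at 4 h for TTP, and to 12, 186 and 0 for TTP-AA. At 4 h the 9 genes had only 2 intronic cDNAs with TTP, in Tial1, and 2 with TTP-AA, in Tia1, both in lists with at most 1000 3′UTR cDNAs in all. A list holds only sites that passed the false discovery rate, so a count of 0 means that no site passed it, and not that the protein was absent from the mRNA.

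**Figure D1:**
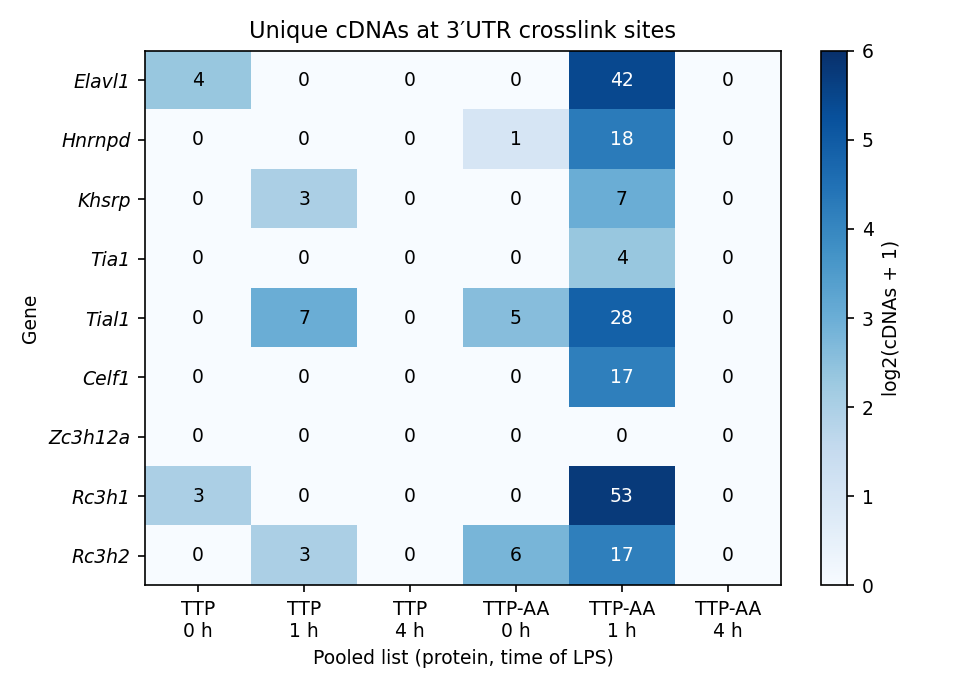
Unique cDNAs at 3′UTR crosslink sites of each gene (rows) in each of the 6 pooled lists (columns), printed in the cells and shaded by log2(cDNAs + 1). The TTP-AA list at 1 h holds 186 of the 218 cDNAs, both lists at 4 h hold 0, and Zc3h12a is at 0 in every list.

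The number of members with a 3′UTR site was compared with that over all genes. In TTP-AA at 1 h 8 of the 9 members had a site, against 21.4% of all 21045 genes. At 0 h 2 members had one with TTP, against 3.62% of all genes, and 3 with TTP-AA, against 4.35%. With TTP at 1 h 3 members had one, against 6.21%. At 4 h no member had one, against 0.603% of all genes with TTP and 0.941% with TTP-AA. The members have long 3′UTRs, with a median of 4218 nt against 960 nt over all genes and 1523 nt over the 4510 genes with a site in TTP-AA at 1 h, and the part of 3′UTR length in these shares was not tested. The amount of each mRNA was not measured in these lists, so more bound protein per mRNA and more mRNA cannot be told apart.

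Elavl1 (ENSMUSG00000040028.10, chr8, minus strand), which encodes HuR, the regulator that stabilises mRNAs with AU-rich elements, had 4 3′UTR cDNAs with TTP at 0 h, 0 at 1 h and 0 at 4 h. With TTP-AA it had 0, 42 and 0. The 2 lists with sites shared 1 place. All 4 cDNAs of TTP at 0 h lay 225 to 241 nt after the stop codon, each within 2 nt of a TTP-AA site at 1 h. They belonged to a cluster, meaning sites with gaps of at most 15 nt, at chr8:4289324-4289378 (nt 222 to 276), which also held 27 of the 42 TTP-AA cDNAs (64.3%). This cluster is in the part of the 3′UTR common to both annotated isoforms, with 3′UTRs of 1257 and 4218 nt, and 34 of the 42 cDNAs fell into that common part. No AUUUA lay within 20 nt of the cluster, and the nearest to the site at nt 237 was 162 nt away. The Elavl1 3′UTR has 17 AUUUA pentamers and 8 nonamers UUAUUUAUU, with the densest stretch near nt 3813. The cluster there, nt 3813 to 3828, held 4 of the 42 cDNAs although 8 AUUUA lie within 20 nt of it. Crosslinks on Elavl1 were thus fewer in its densest AU-rich stretch than near the stop codon. A further 2 cDNAs of TTP at 1 h lay in the coding sequence, at chr8:4311699-4311709.

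Hnrnpd (ENSMUSG00000000568.15, chr5, minus strand) encodes AUF1, a family of isoforms that bind AU-rich elements and mostly promote decay. It had no 3′UTR cDNA with TTP in any list. With TTP-AA it had 1 at 0 h, 18 at 1 h and 0 at 4 h. All 18 cDNAs at 1 h lay within the first 285 nt of a 3′UTR of 5429 nt, a stretch found in all 4 annotated 3′UTRs, the shortest of 362 nt. The first AUUUA of Hnrnpd is at nt 781, so none of these sites had one within 20 nt. In TTP-AA at 1 h 4 further cDNAs lay in coding sequence next to the stop codon, at positions 99962546, 99962547, 99962550 and 99962551 of chr5, the first 2 inside the stop codon itself. Together with the 3′UTR site at nt 5 (position 99962540) they formed contacts on both sides of the stop codon.

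Khsrp (ENSMUSG00000007670.10, chr17, minus strand), which encodes the decay factor KSRP, had 3 3′UTR cDNAs with TTP at 1 h and 7 with TTP-AA at 1 h, and 0 in the other 4 lists. The places differed between the proteins. The TTP cDNAs were at chr17:57021658-57021660 (nt 1033 to 1035) and the TTP-AA cDNAs at chr17:57021500-57021504 (nt 1189 to 1193), at least 154 nt apart. The single AUUUA of the Khsrp 3′UTR, at nt 1091, was not within 20 nt of either.

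Tia1 and Tial1 encode TIA-1 and TIAR, related proteins that silence translation and build stress granules. Tia1 (ENSMUSG00000071337.11, chr6, plus strand) had 4 3′UTR cDNAs in TTP-AA at 1 h, at nt 556 to 558 and at nt 1450, and 0 in the other 5 lists. Tial1 (ENSMUSG00000030846.15, chr7, minus strand) had 0, 7 and 0 with TTP and 5, 28 and 0 with TTP-AA at 0, 1 and 4 h. It was the only member with a cluster found in 3 lists, chr7:128442387-128442444 (nt 89 to 146). That cluster held 5 of the 7 cDNAs of TTP at 1 h, all 5 of TTP-AA at 0 h and 20 of the 28 of TTP-AA at 1 h. It contains the AUUUA shown above and lies within the 3′UTRs of all 6 annotated isoforms. The other 2 cDNAs of TTP were at nt 2672 to 2674, at least 2455 nt from any TTP-AA site at 1 h and 82 nt from the end of the longest 3′UTR. Both paralogs also had sites inside the gene body. Tial1 had 5 cDNAs with TTP-AA at 1 h in an exon of a transcript not classed as protein-coding, at chr7:128447017-128447030. It had 2 with TTP at 0 h in such an exon, at chr7:128447180-128447184. Tia1 had 2 cDNAs with TTP and 3 with TTP-AA at 0 h in such exons, and 2 intronic cDNAs with TTP at 0 h.

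Celf1 (ENSMUSG00000005506.16, chr2, plus strand) encodes CUGBP1, which binds GU-rich elements and acts in splicing and decay. It had 17 3′UTR cDNAs in TTP-AA at 1 h and 0 in the other 5 lists. They formed 4 clusters spread along a 3′UTR of 6132 nt, at nt 271 to 296 (6 cDNAs), 1927 to 1935 (4 cDNAs), 3390 to 3402 (4 cDNAs) and 5546 to 5560 (3 cDNAs). Of the 4, the clusters nearest the stop codon and nearest the 3′ end had an AUUUA within 20 nt. In 4 of the 9 annotated transcripts an intron is removed from the 3′UTR, and only 7 of the 17 cDNAs lie in these shorter forms.

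The stem-loop regulators fell on both ends of the range. Zc3h12a (ENSMUSG00000042677.7, chr4, minus strand), which encodes the endonuclease Regnase-1, had no site in any list or any region of the gene. Its 3′UTR (chr4:125118423-125119278) is the shortest of the 9, with 856 nt, 3 AUUUA and 46.5% A and U. Per kb it has 3.5 AUUUA, inside the range of the 9 from 0.609 (Khsrp) to 4.69 (Rc3h2). Rc3h1 (ENSMUSG00000040423.10, chr1, plus strand), which encodes Roquin-1, had the most 3′UTR cDNAs. It had 3, 0 and 0 with TTP at 0, 1 and 4 h and 0, 53 and 0 with TTP-AA. Rc3h1 and Elavl1 together held 95 of the 186 member cDNAs of TTP-AA at 1 h (51.1%). The 53 cDNAs lay in 9 clusters from nt 259 to nt 6324 of a 3′UTR of 7181 nt, and 4 of the 9 clusters had an AUUUA within 20 nt. The largest clusters were at chr1:160968056-160968073 (nt 259 to 276) and chr1:160969765-160969805 (nt 1968 to 2008), with 11 cDNAs each. The 3 cDNAs of TTP at 0 h lay in 1 cluster with TTP-AA sites of 1 h, at nt 2061 to 2076, and each was within 6 nt of such a site. TTP at 1 h had 3 cDNAs in an intron of Rc3h1 (chr1:160908890-160908892) and none in its 3′UTR.

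Rc3h2 (ENSMUSG00000075376.10, chr2, minus strand), which encodes the paralog Roquin-2, had 0, 3 and 0 3′UTR cDNAs with TTP and 6, 17 and 0 with TTP-AA at 0, 1 and 4 h. The sites at 0 h and 1 h were in different places. At 1 h TTP-AA had clusters at nt 565 to 590 (7 cDNAs), 715 to 727 (4 cDNAs) and 2092 to 2104 (6 cDNAs), and the last also held the 3 cDNAs of TTP at 1 h around an AUUUA. The 6 cDNAs of TTP-AA at 0 h were at chr2:37372285-37372302 (nt 3098 to 3115), at least 994 nt from any TTP-AA site at 1 h. Past the annotated end of Rc3h2, position 37368907 of chr2, 1162 nt downstream on the same strand, had 2 cDNAs in TTP at 4 h and 2 in TTP-AA at 0 h.

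**Figure D2:**
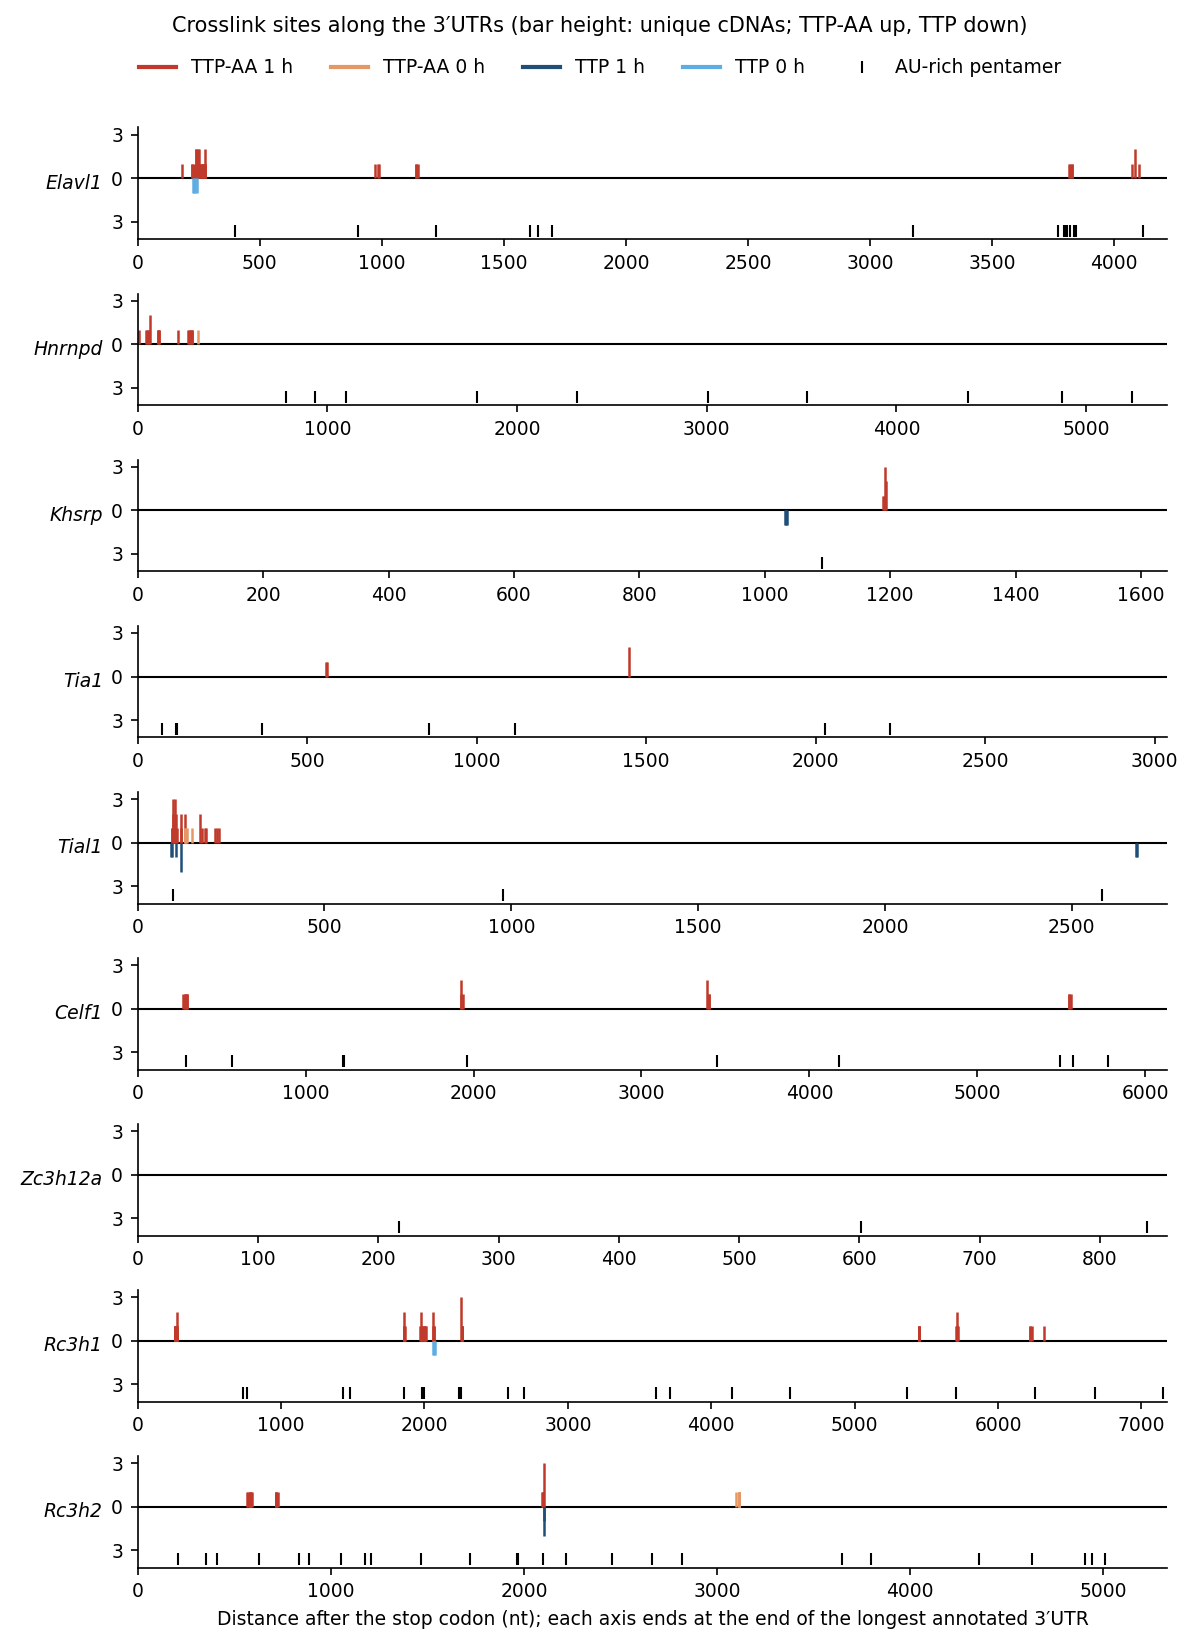
Crosslink sites along the longest annotated 3′UTR of each gene, by distance after the stop codon in nt; bar height is the number of unique cDNAs at a site, TTP-AA is drawn upwards and TTP downwards, and black ticks mark AUUUA pentamers. The sites of Hnrnpd end at nt 318 and those of Tial1 in TTP-AA end at nt 217, whereas the clusters of Rc3h1 and Celf1 run along most of the 3′UTR.

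Sites were thin: 129 of the 155 member 3′UTR sites of TTP-AA at 1 h (83.2%) had 1 cDNA, and none had more than 3. The share within the first 300 nt after the stop codon was 48.9% of the member cDNAs (91 of 186), whereas these stretches make up 6.72% of the 3′UTR length of the 8 members with sites. Over all genes 30.8% of the 3′UTR cDNAs of this list lay there. The 3′UTRs of bound genes are shorter (median 1523 nt against 4218 nt for the members). The first 300 nt are thus mostly a larger part of their length, and the 2 shares have unlike baselines. Elavl1 and Tial1 each gave 28 of the 91 cDNAs, Hnrnpd 18, Rc3h1 11 and Celf1 6, and the other 4 members gave none.

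The next question was whether the member sites lay near the AU-rich pentamer. In TTP-AA at 1 h 47 of 155 sites (30.3%, 95% Wilson interval 23.6 to 38.0) had an AUUUA within 20 nt, against 8.77% of all positions of the 9 3′UTRs and 34.7% of the 3′UTR sites of all genes. This interval covers counting error only, as do all intervals below, and sites of 1 gene are not independent. By cDNAs the share was 32.3% for the members and 40.7% over all genes. Rc3h1 (24 of 46 sites, 52.2%), Tial1 (9 of 19, 47.4%), Celf1 (6 of 15, 40.0%) and Rc3h2 (4 of 15, 26.7%) had higher shares at sites than over their own 3′UTR positions, which were 9.54%, 4.03%, 5.61% and 16.7%. For Elavl1 the share at sites was 11.1% (4 of 36), beside 9.51% of positions, and for Hnrnpd (17 sites), Khsrp (4 sites) and Tia1 (3 sites) it was 0. In the TTP list at 1 h 5 of 11 member sites (45.5%, interval 21.3 to 72.0) had an AUUUA within 20 nt, against 37.9% over all genes. The longer heptamer UAUUUAU was within 20 nt of 22 of the 155 sites (14.2%, interval 9.56 to 20.6), against 16.1% over all genes and 0.987% of member positions. For the nonamer UUAUUUAUU, which contains both shorter motifs, it was 13 sites (8.39%, interval 4.97 to 13.8), against 4.23% over all genes and 0.396% of member positions. These 13 sites were in Rc3h1 (5), Elavl1 (4) and Rc3h2 (4). By nucleotide, 64.5% of the 155 sites were at a U, against 61.6% over all genes and 33.7% of the member 3′UTR positions.

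**Figure D3:**
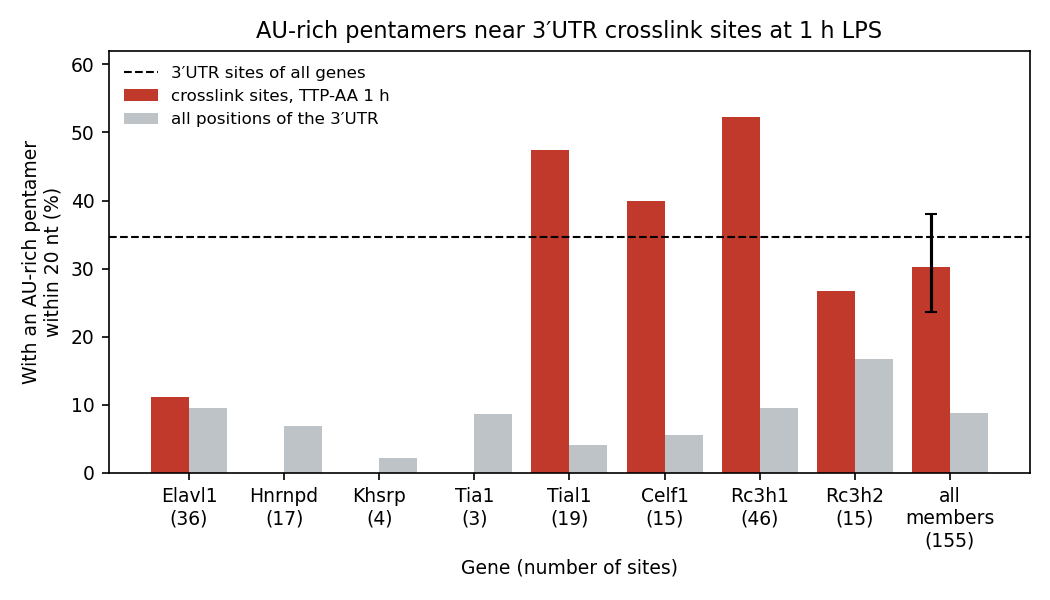
Share of 3′UTR crosslink sites of TTP-AA at 1 h with an AUUUA within 20 nt (red), beside the share of all positions of the same 3′UTR (grey), for the 8 genes with sites and for all members together; the number of sites is in brackets, the error bar is the 95% Wilson interval and the dashed line the share over all genes. Tial1, Celf1 and Rc3h1 stand above the 34.7% of all genes, and Hnrnpd, Khsrp and Tia1 are at 0.

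By crosslinks per length, 3 of the 8 members with a site lay above the median of the bound genes and 5 below it. In TTP-AA at 1 h the highest levels were in Tial1 (10.2 cDNAs per kb of 3′UTR), Elavl1 (9.96) and Rc3h1 (7.38), above a median of 6.21 over the 4510 genes with a site. Khsrp (4.26), Hnrnpd (3.32), Rc3h2 (3.19), Celf1 (2.77) and Tia1 (1.32) were below that median, and Tia1 was also below the lower quartile of 2.35. The median over the 9 members, Zc3h12a at 0 included, was 3.32 cDNAs per kb, and their median count was 17.0 cDNAs, beside 8 for the bound genes. The order by count and by length differed, since Rc3h1 had the most cDNAs and the third highest level per kb.

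**Figure D4:**
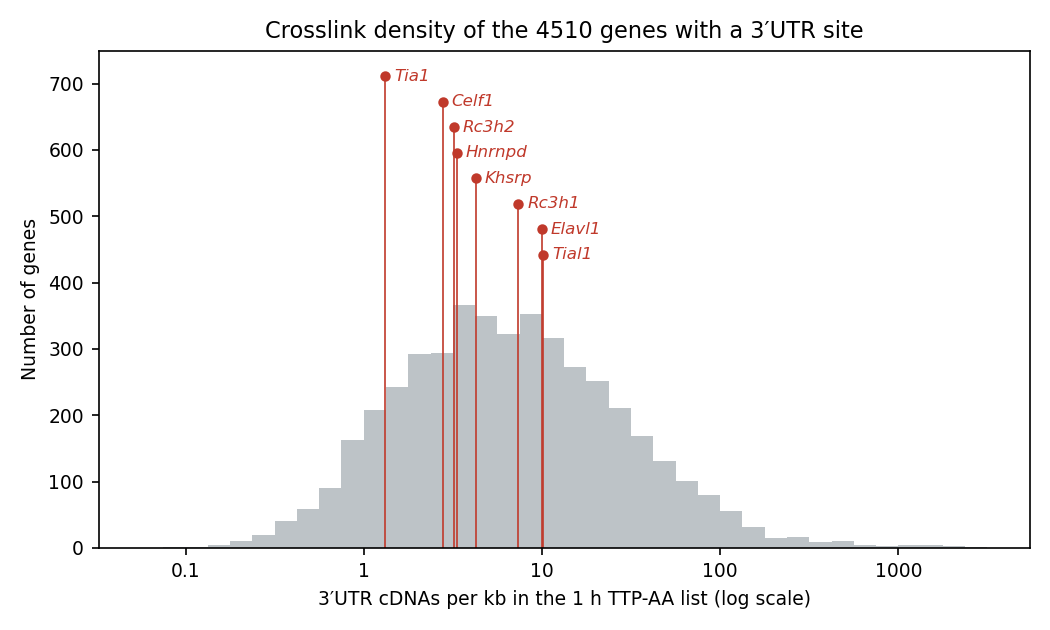
Distribution of 3′UTR crosslink density, in cDNAs per kb on a log scale, over the 4510 genes with a site in the TTP-AA list at 1 h (grey bars: number of genes), with the 8 members that have a site marked in red; the height of a red marker carries no value. Members run from 1.32 (Tia1) to 10.2 (Tial1) cDNAs per kb, on both sides of the median of 6.21.

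TTP-AA was compared with TTP at 1 h to ask how the loss of MK2 phosphorylation sites goes with contacts on these mRNAs. Summed over the 9 members, TTP-AA had 186 3′UTR cDNAs and TTP 13, a ratio of 14.3 (95% exact binomial interval 8.16 to 27.4). This sum takes in 53 TTP-AA cDNAs of Rc3h1, 42 of Elavl1, 18 of Hnrnpd, 17 of Celf1 and 4 of Tia1. These members had no listed 3′UTR site with TTP at 1 h, and the interval takes each such 0 as a full count. The members listed with both proteins had ratios of 5.67 (Rc3h2), 4.0 (Tial1) and 2.33 (Khsrp). Over all genes the ratio of 3′UTR cDNAs was 9.78. Relative to the 3′UTR cDNAs of each list the summed ratio was therefore 1.46, with an interval of 0.834 to 2.8 that includes 1. Relative to all cDNAs of each list it was 8.14. The choice of denominator thus decided the size of the difference, and the total 3′UTR cDNAs moved with it.

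Each gene was then tested against all other 3′UTR cDNAs of both lists, with a two-sided Fisher exact test and Benjamini-Hochberg adjustment over the 2102 genes with at least 10 cDNAs. The test compares 2 pooled lists, not cultures. It called 131 genes (6.23%), 90 with a higher share in TTP and 41 with a higher share in TTP-AA. Of the 7 members that could be tested it called 0. Of these 7, 4 had no listed site with TTP and reached 10 cDNAs through TTP-AA alone, namely Rc3h1 (53 cDNAs with TTP-AA), Elavl1 (42), Hnrnpd (18) and Celf1 (17). Their 0 is a count cut off at the false discovery rate, so the counts are given without a p. The other 3 members had cDNAs in both lists and a lower share in TTP-AA. They are those listed with TTP, whose list held 9558 3′UTR cDNAs against 93510 with TTP-AA. There 3 cDNAs already gave 31.4 per 100000, so no conclusion is drawn from this direction. Tial1 had 29.9 per 100000 3′UTR cDNAs in TTP-AA and 73.2 in TTP (odds ratio 0.409, exact p = 0.0391, adjusted 0.241), although its cDNAs were 28 and 7, a ratio of 4.0 (1.71 to 10.8). Khsrp had 7.49 and 31.4 per 100000 and Rc3h2 18.2 and 31.4, with adjusted p of 0.293 and 0.688 by the exact test. Of the 2102 genes tested, 18.7% had an unadjusted p under 0.05. With all cDNAs of a list as the denominator, the 4 members without a TTP site passed the threshold, and so did 1792 of the 2102 genes.

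The places of contact were shared in part. Of the 11 member 3′UTR sites of TTP at 1 h, 6 (54.5%, Wilson interval 28.0 to 78.7) had a TTP-AA site within 15 nt, namely 4 of 6 in Tial1, 2 of 2 in Rc3h2 and 0 of 3 in Khsrp. On the same nucleotide it was 3 of 11 (27.3%). The 6 sites lay in 1 cluster of Tial1 and 1 of Rc3h2, and neighbouring sites are not independent. At 0 h all 7 TTP sites lay within 6 nt of a TTP-AA site of 1 h. They were 4 sites in 1 cluster of Elavl1 and 3 in 1 cluster of Rc3h1. Of the 12 TTP-AA sites of 0 h, 4 had a TTP-AA site of 1 h within 15 nt, all in Tial1. Of 37 clusters in all, 4 were found in more than 1 list. These shares were not computed over the 3′UTR sites of all genes, so the overlap cannot be called particular to the members.

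LPS for 1 h was compared with 0 h within each protein. The headers of both 1 h lists name a site-calling setting that those of the other lists do not, and its part in these differences was not tested. With TTP-AA, 6 members could be tested and 1 was called, Rc3h2, against 284 of 2081 genes (13.6%). Of the 284 genes, 221 had a higher share at 0 h and 63 at 1 h. The cDNAs of Rc3h2 went from 6 to 17. Its share of 3′UTR cDNAs went from 99.9 to 18.2 per 100000 (odds ratio 0.182, adjusted p = 0.0197 by the exact test). With all cDNAs as the denominator this call was lost, and Elavl1 and Rc3h1, both at 0 at 0 h, were called instead, among 503 genes. Tial1 also had a lower share at 1 h, 29.9 against 83.2 per 100000, with an adjusted p of 0.209 by the exact test. Elavl1, Celf1 and Rc3h1 had no listed site at 0 h and were among the 6 through the 1 h list alone, so no p is given for them. With TTP no member reached the 10 cDNAs that the test needed, while 47.3% of the 277 genes tested were called. The comparisons of the proteins at 0 h and at 4 h could not be tested for any member either.

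A list of 20 other RNA-binding proteins of AU-rich, GU-rich or stem-loop elements is set beside the 9 members. It was chosen with earlier results of these data known. In TTP-AA at 1 h 17 of the 20 had a 3′UTR site, against 21.4% of all genes, with 1031 cDNAs in all. Zc3h12b, Zc3h12d and Arid5a, the first 2 being relatives of Regnase-1 and the last a protector of stem-loop mRNAs, had none. Between the proteins at 1 h 0 of 15 tested genes were called, against 6.23% of all genes tested. Of the 15, 2 genes with cDNAs in both lists had an unadjusted p under 0.05. Over all genes tested, 18.7% had such a p. The 2 are named without a further claim. By this exact test these were Pum2, a repressor of mRNA translation (102 and 3 cDNAs, p = 0.0176), and Hnrnpab, a relative of Hnrnpd (162 and 8 cDNAs, p = 0.0455). Between 1 h and 0 h of TTP-AA 3 of 15 were called, of which Zc3h12c, the Regnase-1 relative with the most cDNAs (137 at 1 h), and Celf2, the paralog of Celf1 (109 at 1 h), had no listed site at 0 h and entered the test through the 1 h list alone. Hnrnpab had a lower share at 1 h, with 173.0 per 100000 against 466.0 at 0 h (adjusted p = 0.000488, exact test). With TTP it was the only one of 5 tested genes that was called. Its share was again lower at 1 h (83.7 against 389.0 per 100000, adjusted p = 0.00139, exact test). Over all genes tested between 1 h and 0 h, 13.6% were called with TTP-AA and 47.3% with TTP.

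The genes whose profile was most like that of Rc3h1, the member with most cDNAs, were Sppl2a and Sgms1, with Euclidean distances of 0.413 and 0.434 over the 6 lists among 2218 genes with at least 10 cDNAs, on log2(cDNAs per 100000 3′UTR cDNAs + 1). Like Rc3h1 they had few cDNAs with TTP at 0 h (4 and 3), 51 and 39 with TTP-AA at 1 h, and 0 in the other 4 lists.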

How the data were processed

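iCLIP was done on 15 libraries in 6 groups (GFP–TTP or GFP–TTP-AA, at 0, 1 or 4 h LPS). Per the study's methods and the file headers, the authors removed PCR duplicates by random barcode, mapped reads to GRCm38 with Bowtie, pooled libraries by group, and then called sites with a false discovery rate under 0.05 (100 permutations, 15 nt neighbourhood, Ensembl 75). The deposited score of a site is its unique cDNA count, signed by strand. The headers of both 1 h lists carry a setting, regionAsOne, that those of the other 4 do not, so levels set between 1 h and other times may also carry a difference in site calling.

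Sites were assigned by strand to GENCODE M21 features, in the order 3′UTR, coding sequence, 5′UTR, other exon, intron; positions refer to the transcript with the longest 3′UTR. Tests were two-sided Fisher exact tests on pooled counts over all genes with at least 10 cDNAs, with a threshold of 0.05 after Benjamini-Hochberg adjustment, in scipy 1.17.1 (Python 3.11.15). The code was tested on simulated data for the proteins at 1 h: of 2102 genes, 200 were changed 8-fold and 47.0% of these were recovered, with 1 of 1902 unchanged genes called. No fold change was computed against a count of 0, because the lists omit sites under the threshold, and no p is printed for a gene with 0 in one list. All 9 members are named, with, for each, the strongest sites, and the 3 genes most like the member with most cDNAs, of which 1 is not reported here. Members, the list of 20 genes and markers were chosen with earlier results of these data known. Alternatives were another denominator, minimum, region order, annotation, site depth and distance.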

Additional observations from a re-analysis of the deposited data

Results flagged for a closer look

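In 2 genes the listed 3′UTR cDNAs differed in opposite directions between 0 h and 1 h of LPS with the 2 proteins. This held in counts and as a share of 3′UTR cDNAs. Elavl1 had a change of -4 with TTP (from 4 to 0) and of 42 with TTP-AA (from 0 to 42). Rc3h1 had a change of -3 with TTP (from 3 to 0) and of 53 with TTP-AA (from 0 to 53). As a share of 3′UTR cDNAs alone, 2 more members moved in opposite directions, the reverse way round, while their counts were higher at 1 h with both proteins. Tial1 had a change of 73.2 per 100000 with TTP and -53.3 with TTP-AA, and Rc3h2 of 31.4 and -81.7. All changes of Elavl1 and Rc3h1, and those of Tial1 and Rc3h2 with TTP, run to or from a 0. Such a 0 means only that no site passed the false discovery rate. The 7 member sites of TTP at 0 h had 1 cDNA each. The headers of the 1 h lists also name a site-calling setting that those of the 0 h lists do not. Each group is 1 pooled list, and the difference between the proteins was not tested.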

How the results depend on the processing

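No paired analysis was possible because the libraries of a group were summed into 1 list before sites were called, and no replicate could be left out for the same reason. With all cDNAs of a list as the denominator, 4 members in place of 0 were called between the proteins at 1 h (1792 genes in place of 131). Between 1 h and 0 h with TTP-AA it was 2 in place of 1 (503 genes in place of 284). The 4 had no listed 3′UTR site with TTP at 1 h, and the 2 none with TTP-AA at 0 h. They entered these tests through the other list alone, so the calls rest on counts cut off at the false discovery rate. The summed ratio of TTP-AA to TTP at 1 h, 14.3, takes in members with no listed 3′UTR site with TTP. It became 1.46 per 3′UTR cDNA and 8.14 per cDNA of the list. It was 14.1 with each site counted once. Sites with at least 2 cDNAs left 0 and 4 member cDNAs with TTP at 0 and 1 h and 0 and 57 with TTP-AA. With these sites 62 of 817 genes tested were called between the proteins at 1 h, beside 131 of 2102 before. Of the members 3 could then be tested, and 0 were called. The share of TTP sites shared at 1 h fell to 27.3% on the same nucleotide, and the AUUUA share of TTP-AA sites was 41.9% within 50 nt. Minimums of 5 and 20 cDNAs, coding sequence before 3′UTR and each site counted once left 0 members called at 1 h. The members tested under these settings were 7, 4, 7 and 6, in this order. The basic annotation left all member counts as they were.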
